A study of Mus musculus with 4 samples.

Results

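The genes of cholesterol and fatty acid synthesis were followed in sorted mouse leukemia cells with and without reduction of the microRNA miR-99. The set was a list of 33 named genes that encode the enzymes of both pathways, the proteins that regulate them and 3 sterol transport proteins, and all 33 were matched by symbol to 1 gene identifier each among the 45232 genes counted. The cells were leukemic granulocyte-macrophage progenitors (L-GMPs), taken from secondary recipient mice of MLL-AF9 leukemia when the mice died. Both groups carried the MLL-AF9 fusion, an oncoprotein that drives acute myeloid leukemia. One group was labelled Scr and the other miR-99 KD, with 2 mice and 1 RNA sequencing library per mouse in each. The labels spell out neither name. They give no age, strain or sex of the mice, and do not say whether all 4 received the same primary leukemia. Cells were sorted for 2 fluorescent markers, GFP and tdTom, and for the surface proteins CD34, CD16/32, c-Kit and Sca-1, all positive by label. The comparison asks how reducing miR-99 changes transcript levels in these cells.

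Animal cells make cholesterol and fatty acids from the same precursor, acetyl-CoA, which ATP citrate lyase (Acly) supplies to the cytosol. Cholesterol synthesis runs through mevalonate, isoprenoids and squalene, and fatty acid synthesis through acetyl-CoA carboxylase (Acaca), fatty acid synthase (Fasn) and the stearoyl-CoA desaturases. Both are controlled by the SREBP transcription factors, made from Srebf1 and Srebf2. When membrane sterol is low, the escort protein Scap carries them from the endoplasmic reticulum for activation, and the Insig proteins hold them back when sterol is plentiful. Growing cells need both products for new membrane.

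Sequences of the microRNA are shown because the seed, bases 2 to 8, is what a target transcript pairs with. The mature 5p forms of Mir99a (chromosome 16), Mir99b (chromosome 17) and the related Mir100 (chromosome 9) share 1 seed, set here in capitals (RefSeq, GRCm38.p6, 5′ to 3′).
mmu-miR-99a-5p: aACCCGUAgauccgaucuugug
mmu-miR-99b-5p: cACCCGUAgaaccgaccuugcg
mmu-miR-100-5p: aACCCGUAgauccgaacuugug

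For each gene the sense strand of its longest 3′ UTR in the annotation was searched for TACGGGT, the match to the whole seed, and for ACGGGTA, the match to its first 6 bases followed by A. All 33 members had such a UTR and 1 of them, Scd2, held a match (3.03%), against 441 of 21186 genes (2.08%). The median length of these UTRs was 1566 bases for the members against 1084 over all genes, so the shares come from unlike lengths. Scd2 encodes a stearoyl-CoA desaturase, which puts the double bond into saturated fatty acids. Its match is in capitals with the bases beside it, and it begins at base 3296 of a UTR of 3664 bases.
Scd2 site: ctacctccACGGGTAggtgtgag

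Libraries held 38458519 to 42674407 gene counts, with between 21372 and 28573 genes detected, the most in Scr 1. Values are CPM, a library's gene counts scaled to the same total in each library, unless another scale is named. Of the markers of the sorted cells, Kit, Cd34, Fcgr3, Fcgr2b, Hoxa9 and Meis1 were at 117 CPM or more in each library, and Ly6a, the gene of Sca-1, was close to absent (4 and 8 counts in Scr, 5 and 4 in miR-99 KD), against the label. Of these, 3 were lower in both miR-99 KD libraries: Kit (453 and 424 CPM for Scr, 298 and 232 CPM for miR-99 KD), Hoxa9 (301 and 351 CPM, 169 and 165 CPM) and Meis1 (359 and 319 CPM, 231 and 196 CPM). Fcgr2b was higher in both (135 and 117 CPM for Scr, 145 and 153 CPM for miR-99 KD), and in Cd34 and Fcgr3 the groups overlapped. After TMM scaling, both miR-99 KD libraries lay below both Scr libraries in 25.3% of genes tested and above in 18.9%. The summed CPM of 10 granulocyte genes was 5455 and 3309 for Scr against 10395 and 23467 for miR-99 KD, highest in miR-99 KD 2. The 10 monocyte and macrophage genes summed to 661 and 486 in Scr against 563 and 753 in miR-99 KD. Erythroid, B cell, megakaryocyte, and T and NK cell lists summed to at most 112, 88.9, 15.9 and 3.25 CPM in any library, and the stroma and endothelium list to 606 and 544 in Scr against 352 and 275 in miR-99 KD. In that last list Vcam1 went from 476 and 430 CPM to 201 and 137 CPM, while Pecam1 had 123 and 111 CPM for Scr and 149 and 135 CPM for miR-99 KD. Defining markers at 0 in at least 1 library included Pf4, Ppbp, Cd3g, Ncr1, Pax5 and Cdh5, and none of these was at 0 in all 4. In bulk RNA, fewer cells of a type and less RNA per cell cannot be told apart.

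Across the 33 members there was no change between the groups that passed the test. The median member lay above the Scr mean in miR-99 KD 1 and below it in miR-99 KD 2, though not every member followed this order. miR-99 KD 2 was the lowest of the 4 libraries in 21 members (63.6%, against 33.6% of the 15591 genes tested), among them all 5 genes of fatty acid synthesis. miR-99 KD 1 was the highest in 18 members (54.5%, against 18% of genes tested) and the lowest in none (19.2% of genes tested). The lowest value was that of Scr 1 in 4 members (24.8% of genes tested) and of Scr 2 in 8 (22.4%), and the highest was that of Scr 1 in 5 (24.6%), of Scr 2 in 4 (26.8%) and of miR-99 KD 2 in 6 (30.6%). Relative to the mean of the Scr libraries, the median member stood at 0.17 on the log2 scale in miR-99 KD 1 and at −0.33 in miR-99 KD 2, where the medians over all genes tested were 0.02 and −0.03. These 2 medians share the Scr libraries. The difference between the 2 miR-99 KD libraries was negative, lower in miR-99 KD 2, in 27 of 33 members, with a median of −0.43 against −0.04 over all genes tested.

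**Figure D1:**
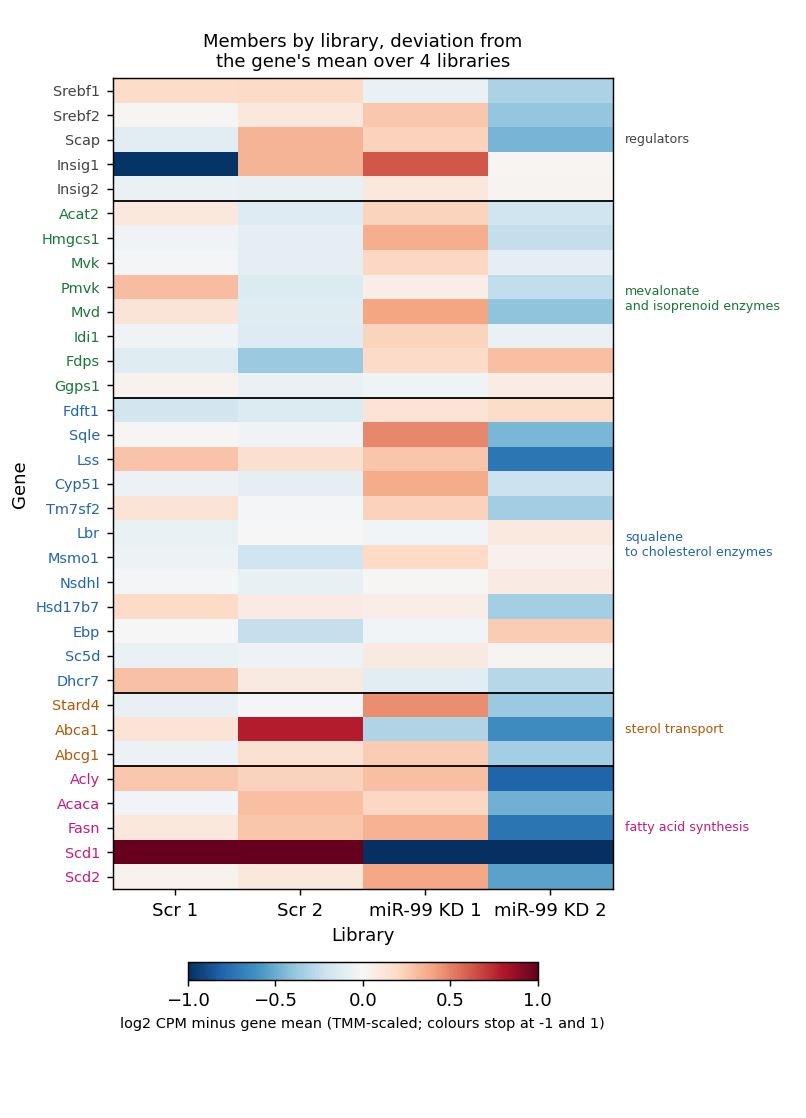
Rows are the 33 member genes by role, columns the 4 libraries, and colour gives the TMM-scaled log2 CPM minus the gene's mean over the libraries, with colours stopping at −1 and 1. The miR-99 KD 2 column is mostly blue, with 21 members at their lowest, and the miR-99 KD 1 column mostly red, with 18 at their highest.

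In edgeR's quasi-likelihood test over all 15591 genes, 0 members passed an adjusted p of 0.05 in either direction, as did 0% of all genes. At an unadjusted p under 0.05, 0 members were higher (2.66% of genes tested) and 2 were lower (5.23% of genes tested), Abca1 and Scd1. Scd1 passed the filter on low counts only through its Scr libraries, so it had to be lower to be tested, and 1 member, Abca1, remained without it. DESeq2 called 0 members, with 0.725% of genes called higher and 0.949% lower, and limma-voom called 0, with 0% of genes. With Scr 1 left out, edgeR again called 0 members (0.993% of genes higher, 0.855% lower), with 0 higher (3.13% of genes) and 2 lower (3.73% of genes) at an unadjusted p under 0.05, and DESeq2 called 0 (0.597% of genes higher, 0.277% lower). All 33 members passed the filter. The median log2 fold change of miR-99 KD over Scr was 0.03, with 18 members positive (49% of genes tested) and 15 negative (51% of genes tested), and 0.04 without Scd1. It was −0.01 over all genes tested. Both miR-99 KD libraries lay above both Scr libraries in 6 members (18.9% of genes tested) and below in 5 (25.3% of genes tested), so neither share was above that of genes at large.

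**Figure D2:**
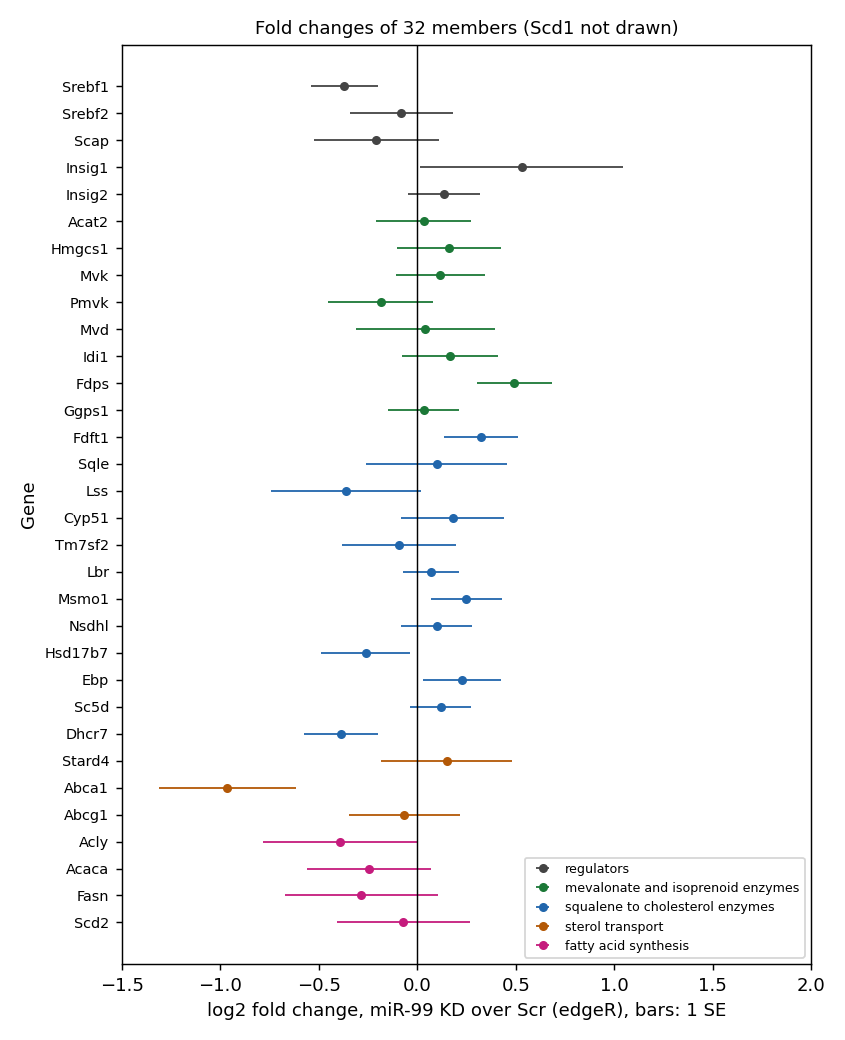
Points are log2 fold changes of miR-99 KD over Scr from edgeR and bars are 1 SE, for 32 members coloured by role; Scd1, at −5.27, is not drawn. The points spread around 0 in the sterol enzymes, and all 4 drawn fatty acid genes lie below 0, from −0.39 for Acly to −0.07 for Scd2.

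The 5 regulators held no change that passed the test, and 2 of them had their groups apart after TMM scaling, Srebf1 with lower and Insig2 with higher values in miR-99 KD. That is 1 of 5 in each direction, against 25.3% of genes tested below and 18.9% above. Srebf1 makes SREBP-1, the form known for driving fatty acid genes, and had 129 and 118 CPM in Scr against 98.4 and 84.6 CPM in miR-99 KD. Both miR-99 KD values lay below both Scr values, with a log2 fold change of −0.37 ± 0.17 (SE, edgeR adjusted p 0.661). Srebf2 makes SREBP-2, the form known for driving cholesterol genes, and had 149 and 144 CPM in Scr against 161 and 105 CPM in miR-99 KD. The Scr values lay between the miR-99 KD values, and the fold change was −0.08 ± 0.26 (edgeR adjusted p 0.932). Scap had 80.0 and 99.1 CPM in Scr against 91.9 and 57.9 CPM in miR-99 KD (−0.21 ± 0.32, edgeR adjusted p 0.858), so the low value was that of miR-99 KD 2. Exons of 5830462I19Rik overlap 13.2% of the Scap exons on the opposite strand, so its counts are uncertain. Insig1, which is itself a known SREBP target, had 15.3 and 34.7 CPM in Scr against 42.3 and 28.6 CPM in miR-99 KD. Its low value was that of Scr 1, and the fold change of 0.53 ± 0.51 (edgeR adjusted p 0.783) was 0.08 without that library. Insig2 varied least of the 5, with 26.0 and 23.4 CPM in Scr against 26.5 and 25.7 CPM in miR-99 KD (0.14 ± 0.18, edgeR adjusted p 0.840).

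Enzymes from acetyl-CoA to the isoprenoids had values close to those of Scr, with 7 of 8 fold changes positive, a median of 0.08 and 0 members past the test. Fdps, farnesyl diphosphate synthase, makes the isoprenoid from which both sterols and protein prenyl groups are built. It had 50.1 and 38.1 CPM in Scr against 56.5 and 62.4 CPM in miR-99 KD. Both miR-99 KD values lay above both Scr values, with a log2 fold change of 0.49 ± 0.19 (edgeR adjusted p 0.634). Exons of Fdps overlap those of Gm43738 on the same strand over 26.7% of their length, so its counts are uncertain. Hmgcs1, the synthase that makes HMG-CoA, had 46.8 and 40.6 CPM in Scr against 56.0 and 37.8 CPM in miR-99 KD, so the Scr values again lay between the miR-99 KD values (0.16 ± 0.26, edgeR adjusted p 0.868). Its antisense neighbour Gm48342 overlaps 12.1% of its exons, with the same limit. Acat2, an acetyl-CoA acetyltransferase of the first step, had 35.5 and 27.3 CPM in Scr against 34.9 and 26.6 CPM in miR-99 KD. The kinases Mvk (13.2, 11.2, 13.9 and 11.5 CPM, in the order Scr 1, Scr 2, miR-99 KD 1, miR-99 KD 2) and Pmvk (20.7, 13.8, 15.9 and 13.0 CPM) phosphorylate mevalonate. Pmvk was the 1 member of the group with a negative fold change (−0.19 ± 0.27, edgeR adjusted p 0.849), and without Scr 1 it was 0.12. The decarboxylase Mvd had 9.98, 7.59, 10.9 and 6.37 CPM in the same order, the isomerase Idi1 had 6.92, 5.88, 7.50 and 6.28 CPM, and Ggps1, which makes geranylgeranyl diphosphate, had 42.0, 35.4, 36.1 and 39.9 CPM. Within each of these genes the 2 groups overlapped.

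Enzymes from squalene to cholesterol had 8 of 12 fold changes positive, a median of 0.10 and 0 past the test. Fdft1, squalene synthase, commits isoprenoids to sterol and had 19.9 and 18.7 CPM in Scr against 22.6 and 23.9 CPM in miR-99 KD. Its groups did not overlap (0.33 ± 0.19, edgeR adjusted p 0.701), though its exons overlap those of Ctsb on the opposite strand, a limit, since no source used here gives the strand setting of the counting. Sqle, squalene epoxidase, an oxygen-dependent control point, had 38.0 and 33.4 CPM in Scr against 47.7 and 25.5 CPM in miR-99 KD (0.10 ± 0.36, edgeR adjusted p 0.942). Lss, which closes the sterol ring, had 39.6 and 32.9 CPM in Scr against 35.7 and 18.3 CPM in miR-99 KD. In both Sqle and Lss miR-99 KD 2 stood below the other 3 libraries, and in Sqle miR-99 KD 1 stood above them. The demethylase Cyp51 followed the pattern of Sqle, with 46.1 and 40.9 CPM in Scr against 56.2 and 38.3 CPM in miR-99 KD.

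At the last steps, Dhcr7, the reductase that yields cholesterol from 7-dehydrocholesterol, had 77.4 and 60.9 CPM in Scr against 53.2 and 48.0 CPM in miR-99 KD. Its miR-99 KD values lay below both Scr values, with a log2 fold change of −0.39 ± 0.19 (edgeR adjusted p 0.667). Hsd17b7, a 3-ketosteroid reductase of the pathway, also had its groups apart, with 39.3 and 33.01 CPM in Scr against 32.6 and 25.2 CPM in miR-99 KD. Msmo1 (55.4, 45.3, 59.8 and 55.0 CPM in the order Scr 1, Scr 2, miR-99 KD 1, miR-99 KD 2), Nsdhl (32.3, 28.1, 30.0 and 32.2 CPM) and Sc5d (76.3, 69.6, 77.0 and 75.3 CPM) remove methyl groups or set a double bond in the sterol. In these 3, and in Insig2, the groups were apart with TMM factors but overlapped in plain CPM. In plain CPM 2 members, Fdps and Fdft1, had both miR-99 KD values above Scr and 5, Scd1 among them, had both below. The share over all genes was not computed in plain CPM, and with TMM factors it was 18.9% above and 25.3% below. The isomerase Ebp had 80.0, 61.7, 70.7 and 88.2 CPM and the reductase Tm7sf2 had 12.1, 9.82, 11.7 and 7.97 CPM in the same order. Lbr, the lamin B receptor, is a sterol reductase that also anchors chromatin at the nuclear envelope and shapes the granulocyte nucleus. It had 1165 and 1107 CPM in Scr against 1087 and 1214 CPM in miR-99 KD, with a difference within the spread between libraries of a group.

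**Figure D3:**
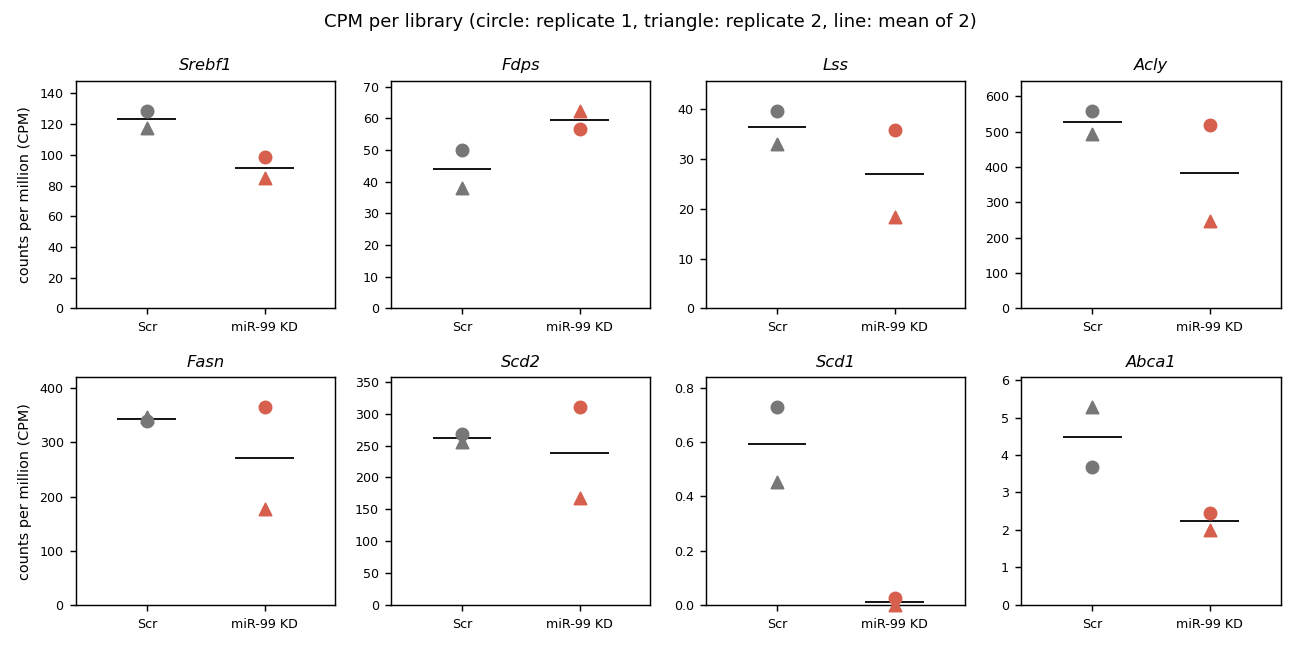
Each panel shows CPM on an axis from 0 for 1 gene, with the 2 Scr libraries in grey, the 2 miR-99 KD libraries in red, replicate 1 as a circle, replicate 2 as a triangle and the mean as a line. In Lss, Acly, Fasn and Scd2 miR-99 KD 2 stands alone below the other 3 libraries, while in Srebf1, Scd1 and Abca1 both miR-99 KD libraries lie below Scr and in Fdps above.

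Fatty acid synthesis genes had 5 of 5 negative fold changes, a median of −0.28, and 0 past the test. Scd1 passed the filter only through Scr, and without it 4 of 4 were negative, with a median of −0.26. In Acly, Fasn, Scd2 and Acaca the low value came from miR-99 KD 2 alone. Acly had 559 and 494 CPM in Scr but 519 CPM in miR-99 KD 1 against 248 CPM in miR-99 KD 2, with a log2 fold change of −0.39 ± 0.39 (edgeR adjusted p 0.786). Fasn had 340 and 347 CPM in Scr but 365 CPM in miR-99 KD 1 against 177 CPM in miR-99 KD 2 (−0.28 ± 0.39, edgeR adjusted p 0.843). Scd2 had 269 and 255 CPM in Scr but 310 CPM in miR-99 KD 1 against 168 CPM in miR-99 KD 2, and Acaca had 23.2, 26.5, 24.8 and 15.8 CPM in the same order. Without miR-99 KD 2, which leaves 1 miR-99 KD library assumed to vary like the Scr pair, the fold changes were 0.086 for Acly and 0.19 for Fasn. The 2 miR-99 KD libraries differed by −1.10 in Acly, −1.08 in Fasn, −0.92 in Scd2 and −0.69 in Acaca on the log2 scale, where miR-99 KD 1 lay within or above the Scr range after TMM scaling.

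Scd1, the desaturase of liver and fat, differed from Scd2 in both level and pattern. It had 28 and 19 counts in Scr (0.728 and 0.454 CPM) and 1 and 0 counts in miR-99 KD, where 0 counts allow up to 0.0705 CPM. Both miR-99 KD libraries lay below both Scr libraries, and the pooled rate was 49.9-fold higher in Scr, with an exact 95% interval for counting error of 8.52 to 2010. The fitted log2 fold change was −5.27 ± 0.93, with an edgeR adjusted p of 0.462 and an unadjusted p of 0.00353. The ratio, its interval and these fitted values describe a gene that the filter admitted through Scr alone, and they support no direction. Scd1 lies at chromosome 19, 44394455 to 44407879, and Scd2 beside it at chromosome 19, 44293674 to 44306864 (GRCm38). The 2 genes are close paralogs, and alignments that were not unique stayed out of the gene counts, so their values are uncertain.

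The 3 sterol transport genes divided. Abca1, the exporter that loads cholesterol onto apolipoprotein A-I and a known target of the sterol-sensing LXR receptors, had 142 and 221 counts in Scr against 105 and 85 in miR-99 KD. That is 3.69 and 5.28 CPM against 2.46 and 2.00 CPM, with both miR-99 KD values below both Scr values. The log2 fold change was −0.97 ± 0.35, with an unadjusted p of 0.0450 and an edgeR adjusted p of 0.621. Abcg1, the exporter to HDL and also a known LXR target, did not share this pattern, with 21.1 and 22.2 CPM in Scr against 23.8 and 16.1 CPM in miR-99 KD (−0.07 ± 0.28, edgeR adjusted p 0.951). Stard4, which carries cholesterol between membranes, had 29.4 and 27.6 CPM in Scr against 38.6 and 22.1 CPM in miR-99 KD (0.15 ± 0.33, edgeR adjusted p 0.902), the order of libraries seen in Sqle.

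Levels of different genes were compared as CPM per kilobase of annotated exon, averaged over the 4 libraries. Lbr was the highest, at 240, followed by Acly at 86.2, Scd2 at 45.9, Ebp at 32.5 and Fasn at 28.1. Srebf2 and Srebf1 stood close together at 19.5 and 19.0. At the other end were Idi1 at 1.90, Acaca at 1.32, Abca1 at 0.324 and Scd1 at 0.0616.

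**Figure D4:**
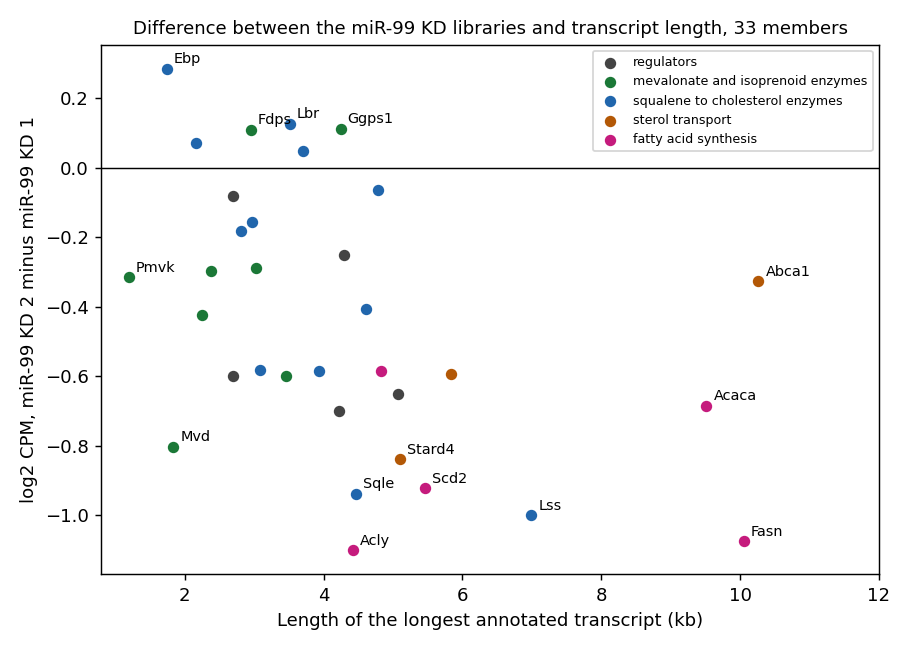
Each point is 1 of the 33 members, coloured by role, with the length of its longest annotated transcript in kilobases across and the log2 CPM of miR-99 KD 2 minus miR-99 KD 1 up. Points above 0 number 6, and the lowest points are Acly at −1.10 and Fasn at −1.08.

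Transcript length moved with the difference between the miR-99 KD libraries. Over the 33 members, Spearman's rho between the log2 difference of miR-99 KD 2 minus miR-99 KD 1 and the length of the longest annotated transcript was −0.50, and it was −0.33 over 15519 genes tested. With the GC content of the same transcript it was −0.30 over members and −0.16 over genes tested. The difference of Scr 1 minus Scr 2 also moved with length, with −0.55 over members and −0.20 over genes tested. These are descriptions over genes of the same libraries. miR-99 KD 2 also had the highest share of alignments that were not unique, 23.6% against 19.3% to 20.1% in the other libraries, and the highest granulocyte sum. Mitochondrial genes held 1.16% of its gene counts, against 0.853% in miR-99 KD 1 and 0.650% and 0.637% in the Scr libraries. The part of length, alignment shares, mitochondrial share or granulocyte transcripts in the low values of miR-99 KD 2 was not tested.

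Promoters of 26 members, from 250 bases before to 50 after the gene start, were available from RefSeq (GRCm38.p6). The letters TCACNCCAC, a form of the sterol response element that SREBP binds, were searched on both strands and stood in 1 of 26 (3.85%), Hmgcs1, against 1.44% of 27025 genes. CCAAT, the letters of the NF-Y box that works beside SREBP at many of these genes, stood on either strand in 22 of 26 (84.6%), against 41.1% of 27025 genes. The E-box CACGTG stood in 6 of 26 (23.1%), against 8.09% of genes. None of the 3 motifs contains another. A gene counted if any of its promoters matched, with 32851 promoters for the 27025 genes. Those genes were not limited to the ones tested here, as the members were, so the shares come from unlike sets. The windows are shown for Hmgcs1, Fasn and Lss, lowest in miR-99 KD 2, and for Insig1, lowest in Scr 1, with the motif in capitals, 5′ to 3′ on the strand that holds it.
Hmgcs1, TCACNCCAC, plus strand, chr13:119690204-119690232: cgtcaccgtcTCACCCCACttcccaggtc
Fasn, CCAAT, minus strand, chr11:120824595-120824619: gcctcggtgtCCAATtggtttcgat
Fasn, CCAAT, plus strand, chr11:120824623-120824647: tctcggtggcCCAATggcggcgcgc
Lss, CCAAT, minus strand, chr10:76531533-76531557: gcgagctcggCCAATcagagcatca
Insig1, CCAAT, minus strand, chr5:28071186-28071210: gccgccggagCCAATgggaggaggg

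The 9 bases of the Hmgcs1 match lie 137 to 129 bases before its start. The Fasn matches lie 62 to 58 and 90 to 86 bases before its start, the Lss match 62 to 58 bases before, and the Insig1 match 216 to 212 bases before. Another Fasn match overlaps the first of these on the other strand. A match is a description of these letters only.

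Other genes of the same pathways were taken from a list of 50, of which 49 were matched and tested. They covered further sterol enzymes (5 tested), SREBP processing and turnover (9), sterol uptake, storage and export (15) and other fatty acid enzymes (20). In edgeR 0 of 49 passed over all genes, and at an unadjusted p under 0.05, 0 were higher and 3 were lower, which is 6.12% against 5.23% of genes tested. Fold changes were positive in 28 and negative in 21, with a median of 0.02 on the log2 scale, and miR-99 KD 2 was the lowest library in 14 of 49 (28.6%, against 33.6% of genes tested), unlike its share among the members; that difference was not tested.

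The 3 were Vldlr, Acss2 and Me1. Vldlr, a lipoprotein receptor, had 78 and 90 counts in Scr against 12 and 11 in miR-99 KD (2.03, 2.15, 0.281 and 0.259 CPM), with both miR-99 KD values far below both Scr values. Its log2 fold change was −2.89 ± 0.35. The edgeR adjusted p was 0.335 with all libraries and 0.00305 when Scr 1 was left out, and the DESeq2 adjusted p was 2.39e-04, or 0.375 when Scr 1 was left out. Acss2, which makes acetyl-CoA from acetate, had 13.4 and 10.8 CPM in Scr against 5.44 and 5.69 CPM in miR-99 KD (−1.07 ± 0.22, edgeR adjusted p 0.466; the DESeq2 adjusted p was 0.0468; when Scr 1 was left out the edgeR adjusted p was 0.820 and Acss2 was not called by DESeq2). Me1, the malic enzyme that supplies NADPH for fatty acid synthesis, had 0.962 and 1.07 CPM in Scr against 0.258 and 0.400 CPM in miR-99 KD (−1.58 ± 0.43, edgeR adjusted p 0.580). In these 3, as in Abca1 and Scd1, both miR-99 KD libraries lay below both Scr libraries. Each of these genes was named for an unadjusted p under 0.05 in edgeR, so this order largely follows from that choice. Scd1 also passed the filter only through Scr.

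On GRCm38, Acly lies at chromosome 11, 100476353 to 100528000, Fasn at chromosome 11, 120805846 to 120824547, Srebf1 at chromosome 11, 60199089 to 60222581, Fdps at chromosome 3, 89093588 to 89101959, and Abca1 at chromosome 4, 53030787 to 53159895. Counts are over the exons of each gene as annotated.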

How the data were processed

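The authors deposited raw counts of reads per Ensembl gene for 4 libraries, since values are whole and totals differ. STAR, Picard, HTSeq and DESeq2 and the build mm9 are named, without versions or roles, per the submitters' processing notes. Annotation release and strand setting: not given in the sources used here. Per the labels' protocols, libraries were made by SMARTer amplification, a method for little RNA. The 5 categories that name no gene held 43.7% to 49.7% of entries and were left out. Of 45232 identifiers, 44585 had a symbol. Symbols, transcript lengths and coordinates were looked up by identifier in GENCODE M21 (GRCm38), and none were converted from mm9.

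Groups were compared two-sided, as miR-99 KD over Scr, by the quasi-likelihood method of edgeR 4.0.16 in R 4.3.3, with TMM factors from 0.969 to 1.07, a minimum count of 10 in the default filter, 15591 genes kept and Benjamini-Hochberg adjustment over them. CPM values use library totals without TMM factors. Log2 CPM values, and statements that groups lie apart, use TMM factors, with a prior count of 2. The SE of a log2 fold change was derived as its absolute value divided by the square root of the test's F statistic. The scripts were tested on simulated data. Alternatives were DESeq2 1.42.0 and limma-voom (limma 3.58.1) on the same genes, other scaling, other filters, a replicate block and leaving out each library. With 2 libraries a group, p-values rest only on the spread between these mice, moderated by the spread of all genes tested in the same libraries. In edgeR the median prior degrees of freedom were 2.41, against 2 residual. Reads had no molecular identifiers, so intervals and floors cover counting error only. The biological coefficient of variation was 0.320.

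The members and lists were chosen with earlier results of these data known. Statistics are printed for members at an unadjusted p under 0.05, for the 2 with the smallest p in each role group, for the regulators, and for Hmgcs1, Sqle, Fasn, Abca1 and Abcg1. Of the other pathway genes, up to 5 in each direction at an unadjusted p under 0.05 were named.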

Additional observations from a re-analysis of the deposited data

How the results depend on the processing

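No member passed an adjusted p of 0.05 under any alternative run, while the count over all genes was 0 as reported and with RLE factors, limma-voom and the stricter filter, 23 with upper-quartile factors, 9 without a filter and 261 with DESeq2. Without each library in turn it ran from 0 to 294, the 294 without Scr 1, for which DESeq2, chosen after seeing the data, gave 139. Members at an unadjusted p under 0.05 in edgeR numbered 2 as reported, both lower (5.23% of genes tested). They numbered 0 with the stricter filter, under which Abca1 and Scd1 were not tested. Without a filter they numbered 3, of which 1 was higher and 2 were lower. With RLE factors, upper-quartile factors and DESeq2 they numbered 2, both lower, and limma-voom gave 1 higher and 1 lower. The share over all genes was not computed for these alternatives. Of the 49 other pathway genes, DESeq2 called 2, Vldlr and Acss2, both lower (4.08%, against 0.949% of genes tested). It called 0 higher (0.725% of genes tested). Without Scr 1 the edgeR log2 fold change of Vldlr was −2.93. Members with groups apart numbered 11 as reported, 6 above and 5 below, where 18.9% and 25.3% of genes tested lay above and below. They numbered 7 in plain CPM (chosen after seeing the data), and 15 to 30 when a library was left out, where fewer samples make separation easier. For these other settings the share over all genes was not computed. The members' median log2 fold change ran from −0.29 without miR-99 KD 1 to 0.20 without miR-99 KD 2, and was −0.01 with upper-quartile factors.

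With a library left out, fold changes crossed 0 in 16 of 33 members, 9 of them among the 17 whose statistics are printed; the other 7 were Acat2, Mvd, Lss, Cyp51, Tm7sf2, Acaca and Scd2. Without miR-99 KD 1 to without miR-99 KD 2 they ran from −0.34 to 0.23 in Abcg1, −0.99 to 0.086 in Acly, −0.86 to 0.19 in Fasn, −0.11 to 0.46 in Hmgcs1, −0.54 to 0.13 in Scap, −0.39 to 0.53 in Sqle, −0.38 to 0.24 in Srebf2 and −0.27 to 0.54 in Stard4. They were also positive without Scr 2 in Abcg1 (0.09), Scap (0.08) and Srebf2 (0.01), and Pmvk ran from −0.34 without Scr 2 to 0.12 without Scr 1. The causes were not tested. Of the 20 genes with printed statistics, 3 of them outside the members, 11 kept their sign in each alternative that could be fitted. The replicate numbers do not pair the mice by label. With the replicate block edgeR called 0 genes and 0 members. At an unadjusted p under 0.05, 1 member was lower there, and the share over all genes was not computed. Deviations of same-numbered libraries correlated at −0.43 across genes, and with the numbers crossed, chosen after seeing the data, 28 genes and 0 members were called. Scd1 rests on 47 counts in Scr and 1 in miR-99 KD, which limits its precision.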
